A study of Mus musculus with 20 samples.

Results

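In the ratios of the scanner software, the 92 array probes described here had lower footpad signal, relative to a reference RNA, in Tabby than in wild-type (WT) mice. This held both at postnatal day 5 (P5) and in adults. The probes were selected on these differences, out of 42006 probes. A probe was kept when its mean log2 ratio was lower in Tabby by 0.8 or more at P5 and in adults, both Tabby arrays lay below both WT arrays at each of these stages, and the processed footpad signal was 100 or more on both WT adult arrays (2.04% of all probes met the difference and the order of arrays at P5 and 3.63% in adults); 4 further probes are left out by name. Since P5 and adult chose the probes, their values at these stages are given as a description with no test. The tests compare the genotypes at E17.5 (before birth), P1 and P3, whose values the choice did not use. The spread in these tests was estimated from the arrays of all stages, P5 and adult among them. The tests are therefore not fully independent of the choice. Counts from fits to the arrays of the compared stages alone are given in the last section.

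Tabby mice carry a mutation of Eda, the gene of ectodysplasin A, a signalling protein of the tumour necrosis factor family that acts through the receptor Edar on epithelial cells. The pathway is known for starting hair follicles, teeth and skin glands. In the mouse, eccrine sweat glands lie in the footpads, and Tabby footpads are known to lack them. The glands bud from the epidermis around birth, grow down into the dermis in the first postnatal days and later form a duct and a coiled secretory part, which releases a fluid driven by ion channels and transporters.

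The study measured footpad skin of Tabby and WT mice, both labelled C57BL6/J, at E17.5, P1, P3, P5 and adult (P56), with 2 biological replicates for each of the 10 groups. Each of the 20 arrays carried Cy3-labelled footpad RNA beside Cy5-labelled reference RNA, a pool of RNA from cultured mouse cell lines mixed with embryonic stem cell RNA, so a higher log2 ratio means more footpad signal relative to that pool. The labels do not say which Eda allele the Tabby mice carried, their sex, or whether a replicate pooled several animals. In RNA of whole skin, fewer cells of a type and less RNA per cell cannot be told apart. The probes carried identifiers and sequences but 0 of the 92 had a gene name or a genome position in the tables used here, so they are described by probe, and neither the Eda gene itself nor markers of skin cell types could be checked.

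Of all probes, 32124 entered the fit, and all 92 members were among them; 6 members were above background on the WT adult arrays only and entered through those arrays. Replicates of a group correlated across probes at 0.959 to 0.996, and an array had a Cy3 signal well above background for 64.7% to 72.1% of its probes. The SD of the log2 difference between replicates was largest in Tabby E17.5 at 0.425, followed by Tabby adult at 0.309, and 0.114 to 0.217 in the other 8 groups. The second Tabby E17.5 array had 43 outlier spots, and the others 1 to 11. Each stage filled 1 slide of 4 arrays, so stage and slide cannot be told apart; Tabby lay at positions 3 and 4 and WT at 1 and 2 on every slide, so genotype and position cannot be told apart either.

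The sequences below are those of the probes that the tests at E17.5, P1 and P3 turned on. Each is 60 bases long and is written 5′ to 3′ as the array files give it, in lower case since no stretch of it is singled out.
Z00025973-1: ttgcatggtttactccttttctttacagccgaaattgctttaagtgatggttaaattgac
Z00025366-1: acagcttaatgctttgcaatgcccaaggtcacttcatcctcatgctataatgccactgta
Z00023608-1: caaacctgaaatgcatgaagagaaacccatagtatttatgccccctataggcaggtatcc
Z00074129-1: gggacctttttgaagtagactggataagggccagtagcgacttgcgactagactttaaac
Z00054739-1: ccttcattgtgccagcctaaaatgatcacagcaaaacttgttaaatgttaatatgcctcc
Z00064398-1: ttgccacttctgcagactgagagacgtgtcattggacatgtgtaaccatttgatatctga
Z00059229-1: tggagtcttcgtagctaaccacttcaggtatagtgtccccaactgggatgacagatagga

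Some members read overlapping stretches and are not independent of each other. Allowing for shared runs of at least 30 bases, the 92 probes formed 89 sequence groups, with 3 pairs inside the set. The pairs are shown so that their values can be compared. Both probes of each pair had passed the rule, so their agreement at P5 and in adults was partly set by the choice. The shared bases are in capitals.
Z00002490-1: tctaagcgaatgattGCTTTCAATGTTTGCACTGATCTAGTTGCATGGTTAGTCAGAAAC
Z00074574-1: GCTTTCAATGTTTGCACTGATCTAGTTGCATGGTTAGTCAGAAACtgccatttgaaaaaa
Z00004889-1: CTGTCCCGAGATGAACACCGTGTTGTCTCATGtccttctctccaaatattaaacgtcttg
Z00075322-1: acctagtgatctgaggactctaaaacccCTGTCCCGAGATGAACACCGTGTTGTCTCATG
Z00022872-1: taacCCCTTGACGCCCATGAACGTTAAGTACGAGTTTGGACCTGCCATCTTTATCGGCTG
Z00055094-1: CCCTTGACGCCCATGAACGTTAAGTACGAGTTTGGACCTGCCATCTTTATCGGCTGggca

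The overlapping member pairs gave nearly the same log2 differences, Tabby minus WT, here on the recomputed scale explained below. Z00002490-1 and Z00074574-1, which share 45 bases, differed by -1.04 and -1.03 at P3, by -1.49 and -1.46 at P5 and by -1.42 and -1.40 in adults. For Z00022872-1 and Z00055094-1, which share 56 bases, the differences were -0.91 and -0.88 at P3, -1.84 at P5 for both, and -4.08 and -4.00 in adults. Z00004889-1 and Z00075322-1, with 32 bases in common, stood at -1.15 and -1.19 at P5 and at -3.76 and -3.65 in adults. One more member, Z00059123-1, shares 53 bases with a probe that did not enter the set, Z00038067-1. Its log2 differences were -0.40 at P5 and -0.42 in adults, beside -0.25 and -0.54 for Z00038067-1. Both probes of that pair were thus lower in Tabby at these 2 stages. In the scanner software's ratios, which the rule used, Z00059123-1 stood at -0.83 at P5 and -1.11 in adults. Z00038067-1 stood at -0.67 and -1.22, so the threshold ran between them at P5 only.

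In what follows, log2 ratios were recomputed from the spot intensities with a gentler background correction than the scanner software's, and levels and differences are on that scale unless the rule's scale is named. On the rule's scale the log2 difference, Tabby minus WT, had a median of -1.55 at P5 (range -7.99 to -0.8) and of -3.02 in adults (range -6.19 to -0.81). On the recomputed scale the medians were -0.83 at P5 (range -4.10 to 0.14) and -1.92 in adults (range -4.95 to -0.24). At P5, 90 of the 92 were below 0 on that scale, beside 48.4% of all probes tested. Both Tabby arrays lay below both WT arrays there for 87 members, beside 26.3%. Since the P5 arrays chose the members, both counts were largely set by the choice, and their contrast with all probes is not a result. The same thresholds applied to the recomputed ratios keep 47 probes, and 43 of them are among the 92. The threshold fell in a dense region: at P5, Z00037934-1 at -0.814 and Z00030773-1 at -0.8 were just inside on the rule's scale, and Z00049214-1 at -0.799 and Z00042319-1 at -0.794 just outside. In adults, Z00024811-1 at -0.857 and Z00025548-1 at -0.807 were just inside, and Z00014785-1 at -0.756 and Z00048193-1 at -0.720 just outside.

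For most members the signal in Tabby footpads was lower rather than gone. In adults, 69 of the 92 were well above background on both Tabby arrays, 11 on 1 array and 12 on neither. All 92 were above it on both WT adult arrays, but the rule had asked for a minimum signal there. The WT adult figure was thus largely set by the choice, and its contrast with Tabby is not a result. At P5, 67 were above background on both Tabby arrays and 79 on both WT arrays, and 10 members were above background on no P5 array of either genotype. For those 10 the P5 difference lies between signals at background. In adults 69 members were at least 2-fold lower in Tabby and 43 at least 4-fold. At P5, 37 were at least 2-fold lower and 5 at least 4-fold. The difference was larger in adults than at P5 for 78 of the 92.

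The gap between the genotypes in the median level of the members was wider at the later stages. The choice asked for lower Tabby values at P5 and in adults, so the gap at these stages was largely set by it and is not a result. Stage and slide cannot be told apart. The median log2 ratio over the 92 was 0.01 in Tabby and 0.03 in WT at E17.5, -0.29 in Tabby and -0.19 in WT at P1, and -0.38 in Tabby and -0.09 in WT at P3. At P5 it was -0.39 in Tabby and 0.12 in WT. For adults the medians were -0.18 in Tabby and 1.5 in WT, while the median of all probes lay within 0.01 of 0 in every group. Single members lay far on either side of these medians, at E17.5 between -5.96 and 2.03 in Tabby and between -5.99 and 2.70 in WT.

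The 8 members with the most negative mean of the P5 and adult differences on the rule's scale are described next, with values on the recomputed scale, where the order is not the same. Z00025973-1 came first on the rule's scale and was the only one of the 8 whose WT level peaked at P5. Its log2 ratio at P5 was -2.59 and -3.05 on the Tabby arrays, against 1.12 and 1.43 on the WT arrays. In adults it was -2.61 and -2.06 in Tabby, against 0.19 and -0.18 in WT. Its Tabby signal was not well above background at any stage, so the fold is a bound: at least 14.3-fold lower in Tabby at P5 and at least 4.76-fold in adults. Such bounds set the WT Cy3 level against the dimmest probe signal that passed as above background on each Tabby array. Where the probe's own Tabby signal was higher than that, it was used instead, and the bound is then the measured difference. Both sides of a bound are Cy3 signals, and no array had the dyes exchanged.

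Z00025366-1 came next on the rule's scale and was well above background on every array. On the recomputed scale its adult difference, -4.95, was the most negative of the 92, beside -2.34 for Z00025973-1. Its log2 ratio at P5 was -0.68 and -0.90 in Tabby, against 2.53 and 2.37 in WT. In adults the ratio was -1.54 and -0.43 in Tabby, with a wide gap between replicates, against 4.18 and 3.76 in WT. The genotypes were far apart at both stages, and the Cy3 signal on the WT adult arrays was 14548 and 9109 units.

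Z00059229-1 and Z00049240-1 shared a pattern of a modest WT level at P5 and a high one in adults. Z00059229-1 had log2 ratios of 0.03 and 0.10 in Tabby, against 1.29 and 1.39 in WT, at P5. In adults it had 0.56 and 0.76 in Tabby, against 5.41 and 5.35 in WT. At P5 its Tabby signal was not well above background, and Tabby was at least 2.13-fold lower. For Z00049240-1 the P5 ratios were -0.26 and -0.39 in Tabby, against 0.81 and 0.78 in WT, at least 2.06-fold lower. Its adult ratios were 0.04 and 0.80 in Tabby, against 4.21 and 4.37 in WT, so both probes had a low adult signal above background in Tabby beside a strong one in WT.

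Z00070973-1 and Z00032932-1 had WT arrays well apart from the Tabby arrays at both stages. Z00070973-1 stood at -0.29 and -0.25 in Tabby, against 1.69 and 1.60 in WT, at P5, and at -0.30 and -0.09 in Tabby, against 2.92 and 2.38 in WT, in adults. Z00032932-1 stood at -1.39 and -1.41 in Tabby, against 0.04 and -0.02 in WT, at P5, and at -1.47 and -1.20 in Tabby, against 1.00 and 0.70 in WT, in adults. The remaining pair, Z00026423-1 and Z00077600-1, was above background on the WT adult arrays only. At P5, Z00026423-1 had -0.11 and -0.24 in Tabby, against -0.09 and 0.25 in WT, and Z00077600-1 had -0.28 and -0.33 in Tabby, against 0.05 and -0.02 in WT. Their place near the top of the rule's scale at P5 therefore comes from ratios of signals at background. In adults Z00026423-1 was at least 1.78-fold lower in Tabby, and Z00077600-1 at least 5.27-fold.

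The comparison at P3 asks whether the members already differed before the stages that chose them. They did for a subset: 16 of the 92 were lower in Tabby at an adjusted p under 0.05 (limma, Benjamini-Hochberg over all 32124 probes), and 0 were higher. Of all probes tested, 0.221% were called lower and 0.0156% higher, and the 16 members made up 17.4% of the set. At an unadjusted p under 0.05, in either direction, there were 49 members (53.3%), beside 9.4% of all probes. Over the 92 the median log2 difference was -0.44, with 77 below 0, whereas over all probes the median was 0.001 with 49.5% below 0. Both Tabby arrays lay below both WT arrays for 65 members, and for 27.8% of all probes. With the scanner software's ratio, the criteria of the rule on differences and order were met by 39 members at P3 beside 1.36% of all probes, by 15 at P1 beside 1.16%, and by 4 at E17.5 beside 3.35%. The 16 calls come from 15 sequence groups. Their number fell to 8 to 10 when any 1 of the 4 P3 arrays was left out: 8 without WT replicate 1, 10 without WT replicate 2, 9 without Tabby replicate 1 and 8 without Tabby replicate 2. In these fits 0.0716% to 0.125% of all probes were called lower. The number was 26 without either of the Tabby E17.5 arrays, beside 0.498% to 0.499% of all probes.

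Z00025973-1 had the most negative P3 difference. Its log2 ratio was -2.90 and -2.60 on the Tabby arrays, against -0.12 and -0.21 on the WT arrays, a difference of -2.59 ± 0.37 (SE, n = 2 each, limma adjusted p = 0.00664). The 2 genotypes did not overlap, and since the Tabby signal was not well above background the fall was at least 5.34-fold. Z00025366-1 followed with -0.84 and -0.80 in Tabby, against 0.95 and 0.90 in WT, a difference of -1.74 ± 0.26 (SE, limma adjusted p = 0.00821), or 3.34-fold lower. The arrays of each genotype lay close together. Both calls were lost when any 1 of the 4 P3 arrays was left out, with an adjusted p of 0.0529 to 0.132 for Z00025973-1 and 0.0773 to 0.135 for Z00025366-1.

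Z00023608-1 had the smallest adjusted p among the members. Its log2 ratio was 0.56 and 0.36 in Tabby, against 1.92 and 2.10 in WT, a difference of -1.55 ± 0.14 (SE, limma adjusted p = 0.000115). For Z00054739-1 the ratios were 0.77 and 0.43 in Tabby, against 1.88 and 2.00 in WT, a difference of -1.34 ± 0.17 (SE, limma adjusted p = 0.00207). With the ratios of the scanner software these 2 calls did not pass, at an adjusted p of 0.349 for Z00023608-1 and 0.422 for Z00054739-1, nor did that of Z00025366-1 at 0.0528. With the deposited value table the adjusted p was 0.219 for Z00023608-1 and 0.263 for Z00054739-1.

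Z00074129-1 and Z00064398-1 were among the bright members, and their P3 calls passed under every alternative run on them. Z00074129-1 stood at -0.97 and -0.79 in Tabby, against 0.72 and 0.55 in WT, a difference of -1.51 ± 0.17 (SE, limma adjusted p = 0.00109). The Cy3 signals of Z00074129-1 were 2708 and 2733 units in Tabby and 8226 and 8202 units in WT. Z00064398-1 stood at -0.55 and -0.63 in Tabby, against 0.81 and 0.65 in WT, a difference of -1.32 ± 0.15 (SE, limma adjusted p = 0.00115). For both probes the Tabby arrays also lay below the WT arrays at E17.5 and P1.

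The other 10 called members differed by -1.25 to -0.88, with an adjusted limma p of 0.0461 or less. They were Z00074013-1, Z00059229-1, Z00024159-1, Z00045843-1, Z00036345-1, the overlapping pair Z00002490-1 and Z00074574-1, Z00022421-1, Z00035071-1 and Z00076577-1. Signal strength moved with the calls. The called members had a median WT P3 Cy3 signal of 1590 units (176 to 9541), and the 76 that were not called had 159 units. All 16 called members were above background on both WT P3 arrays, as were 55 of the others, and 18 members were above background on no P3 array. Of the 76 not called, 61 had a negative difference, with a median of -0.32 and a range of -0.92 to 0.66. The part of signal strength in which members were called was not tested.

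At P1 only 2 members passed the test, Z00054739-1 and Z00059229-1, both lower in Tabby and both also called at P3. The share of all probes called lower at P1 was 0.0342%. Z00054739-1 had log2 ratios of 1.61 and 1.21 in Tabby, against 2.52 and 2.70 in WT, a difference of -1.20 ± 0.17 (SE, limma adjusted p = 0.0165). Z00059229-1 had 0.27 and 0.14 in Tabby, against 0.83 and 1.00 in WT, a difference of -0.71 ± 0.11 (SE, limma adjusted p = 0.0336). The Tabby signal of Z00059229-1 was not well above background, which makes the fall at least 1.5-fold. Neither P1 call passed with the scanner software's ratio, at an adjusted p of 0.756 for Z00054739-1 and 0.057 for Z00059229-1, so the count of 2 in that setting is of other members. The call of Z00059229-1 was lost in 18 of 30 alternatives, among them array weights at 0.0587 and the replicate block at 0.0648, and that of Z00054739-1 in 6 of 31. Without adjustment, 21 members (22.8%) had a p under 0.05 in either direction, beside 4.27% of all probes. The median log2 difference of the 92 was -0.20, with 76 below 0 beside 50% of all probes, and both Tabby arrays lay below both WT arrays for 55 members beside 16.0% of all probes. The count of 2 became 0 without WT P1 replicate 1 or without Tabby P1 replicate 2, 1 without WT P1 replicate 2 or Tabby P1 replicate 1, and 4 or 5 without an array of Tabby E17.5 or of Tabby adult. It was also 1 without any 1 array of WT P3, WT P5, Tabby P5 or WT adult.

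At E17.5 the only member that passed was again Z00054739-1, called lower in Tabby beside 0.0125% of all probes. Its log2 ratio was 0.38 and 0.07 in Tabby, against 1.35 and 1.47 in WT, a difference of -1.18 ± 0.17 (SE, limma adjusted p = 0.0469). The E17.5 call was lost in 18 of 31 alternatives. Among them were the scanner software's ratio (limma adjusted p = 0.682) and the deposited value table (0.626). This call was lost without either WT E17.5 array or without Tabby E17.5 replicate 2, with an adjusted p of 0.153 to 0.337. It was lost as well without any 1 array of WT P1, WT P3, P5 of either genotype or WT adult, at 0.0574 to 0.113. By sign and order of the arrays the members were near the background here: 55 of the 92 were below 0, beside 63.8% of all probes, and the Tabby arrays lay below the WT arrays for 20 members, beside 19.8% of all probes. The replicates of Tabby E17.5 differed more than those of any other group, and without Tabby E17.5 replicate 1 the number of members called was 15 of 92, near the share of 15.9% of all probes called in that fit, whereas it was 0 without Tabby E17.5 replicate 2. Without adjustment, 17 members (18.5%) had a p under 0.05 in either direction, beside 11.5% of all probes.

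Z00054739-1 was thus lower in Tabby at the 3 tested stages with differences of -1.18 at E17.5, -1.20 at P1 and -1.34 at P3, and its level fell between P1 and P3 in both genotypes. From P1 to P3 it changed by -0.81 in Tabby (limma adjusted p = 0.00518) and by -0.67 ± 0.17 in WT (SE, limma adjusted p = 0.0129). In adults its log2 ratio was 0.45 and 0.11 in Tabby, against 0.77 and 0.61 in WT. Its adult Tabby signal was above background on 1 of the 2 arrays, and the order of its differences over the stages turned with the scale: in adults it was -0.41 on the recomputed scale and -2.12 on the rule's scale, beside -1.34 and -1.71 at P3.

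Whether the genotype difference itself was larger at P3 than at P1 was tested as a difference of differences. No member passed: 0 of 92 were called by limma, beside 0.0187% of all probes called more negative at P3. At an unadjusted p under 0.05 in either direction there were 16 members (17.4%), beside 2.37% of all probes. The median of this difference of differences was -0.21 for the members and 0.002 for all probes, with 69 of the 92 below 0 beside 49.5% of all probes. The number called was 1 without either of the Tabby E17.5 arrays, and 0 when any other array was left out.

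Between P1 and P3, 8 members rose and 1 fell in WT footpads, while 3 rose and 5 fell in Tabby footpads (limma adjusted p under 0.05). Over all probes tested, 7.97% rose and 6.26% fell in Tabby, and 9.69% rose and 7.77% fell in WT, so the share of members that rose in WT, 8.7%, was near the background. The members that rose in WT with the largest changes were Z00025973-1, Z00022872-1 and Z00023608-1. Z00025973-1 rose by 1.85 ± 0.37 in WT (SE, limma adjusted p = 0.00411), with WT arrays at -1.99 and -2.03 at P1 and at -0.12 and -0.21 at P3. Z00022872-1 rose by 0.93 ± 0.20 (SE, limma adjusted p = 0.00623), with WT arrays at -3.29 and -3.33 at P1 and at -2.32 and -2.43 at P3. Z00023608-1 rose by 0.90 ± 0.14 (SE, limma adjusted p = 0.000767), with WT arrays at 1.01 and 1.22 at P1 and at 1.92 and 2.10 at P3. The same change in Tabby was -0.14 for Z00025973-1, 0.38 for Z00022872-1 and 0.03 for Z00023608-1, and none of these passed the test.

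The members that fell in Tabby included Z00025366-1, at -0.94 from P1 to P3 (limma adjusted p = 0.0254), and the pair Z00002490-1 and Z00074574-1, at -0.62 and -0.56 (limma adjusted p = 0.00145 and 0.00187); these were named after their values were seen. In WT the same probes changed by 0.24, -0.05 and -0.02, which did not pass the test. The count of 8 in WT was 3 without WT P3 replicate 1, 4 without WT P3 replicate 2, 4 without WT P1 replicate 2 and 16 without either Tabby E17.5 array. The count of 3 in Tabby was 0 without Tabby P3 replicate 2 or either Tabby P1 array, 1 without any 1 array of WT E17.5 or WT P3 or without Tabby P3 replicate 1, and 6 without an array of Tabby E17.5 or Tabby adult. The fall of Z00054739-1 in WT lost its call without WT P1 replicate 2 (adjusted p = 0.107), WT P3 replicate 1 (0.102) or WT P3 replicate 2 (0.0511), and the rise of Z00022872-1 without WT P3 replicate 1 (0.0592). The rise of Z00023608-1 did not pass with the scanner software's ratio (adjusted p = 0.144) or the deposited value table (0.157). Stage and slide cannot be told apart in these changes over time.

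The later part of the course includes the stages that chose the members and is given without a test. From P3 to P5 the median change was -0.02 in Tabby and 0.37 in WT, where 85 of the 92 were higher at P5. From P5 to adult it was 0.12 in Tabby and 1.24 in WT. In WT, 51 members were at least 2-fold higher in adults than at P5, 36 lay within 2-fold and 5 were at least 2-fold lower. In Tabby, 82 of the 92 lay within 2-fold. The adult stage was the highest of the 5 for 32 members in Tabby and for 67 in WT, and E17.5 was the highest for 38 in Tabby and 11 in WT.

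The change between P5 and adult was more positive in WT for 78 of the 92 members. This restates the count of members with a larger difference in adults than at P5 and is no second observation. The rule asked for a minimum signal on the WT adult arrays but set none at P5. The WT adult levels, and this count with them, were therefore partly set by the choice. The change ranged from -1.63 to 2.86 in Tabby and from -1.79 to 4.10 in WT.

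The 3 courses in WT from P5 to adult, higher, within 2-fold and lower, were set apart after the values were seen. The WT values that define them also enter the genotype differences at P5 and in adults. How these differences change from P5 to adult within a course is therefore partly set by the grouping. The 51 members that were higher in WT adults changed by a median of 0.21 from P5 to adult in Tabby and 2.26 in WT. Their median genotype difference was -0.43 at P3, -0.85 at P5 and -2.92 in adults, and 5 of them were among the 16 called at P3. The overlapping pair Z00022872-1 and Z00055094-1 belongs here. Z00022872-1 had adult log2 ratios of -3.96 and -3.27 in Tabby, against 0.68 and 0.26 in WT, and at P5 -3.43 and -3.50 in Tabby, against -1.65 and -1.60 in WT. The most positive change in Tabby was that of Z00047679-1, at 2.86, beside 3.35 in WT.

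The 36 members within 2-fold in WT had a median genotype difference of -0.34 at P3, -0.67 at P5 and -0.94 in adults, and 8 of them were called at P3. The 5 members that were lower in WT adults than at P5 were Z00024811-1, Z00025973-1, Z00042051-1, Z00054739-1 and Z00074129-1, and 3 of them were called at P3. Their median genotype difference was -1.34 at P3, -1.66 at P5 and -0.78 in adults, whereas on the rule's scale it was -1.54, -1.77 and -1.89, so a smaller difference in adults than at P5 held on the recomputed scale only. Z00024811-1 had P5 log2 ratios of 0.69 and 0.53 in Tabby, against 2.40 and 2.15 in WT. In adults it had -0.28 and -0.06 in Tabby, against 0.49 and 0.48 in WT, and the difference was smaller in adults than at P5 on both scales, at -0.65 beside -1.67 on the recomputed one and -0.86 beside -1.77 on the rule's. Z00074129-1 was lower in adults than at P5 in both genotypes: in adults it stood at -2.62 and -1.99 in Tabby, against -0.46 and -0.71 in WT, and at P5 at -1.15 and -1.16 in Tabby, against 0.50 and 0.51 in WT.

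By the medians, the differences lay in the footpad channel, but not for every member. At P5 the difference in Cy3 alone was below 0 for 89 members and reached 0.19, and that in Cy5 reached 0.68. In Cy3 alone, the median log2 difference of the members, Tabby minus WT, was -0.38 at P3, -0.75 at P5 and -1.91 in adults. In Cy5, which carried the same reference on every array, it was -0.04, -0.03 and -0.07 at these stages, although the lowest Cy5 difference of a member was -1.17 in adults, where 2 members lay at -1 or below. No member was saturated in Cy3 on any array. In sequence the members resembled the whole array in base composition, with a median GC content of 43.3% (30% to 55%) beside 43.3% for all probes. The letters AATAAA, the common form of the polyadenylation signal, stood on the probe strand in 10 of 92 members (10.9%) and in 6.93% of all probes.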

How the data were processed

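Per the file headers, Agilent Feature Extraction 9.5.1.1 made the spot values of the 20 two-colour arrays. The deposited array files give the mean signal and local background of each spot as an intensity for each dye, a processed intensity, background-subtracted and dye-normalized, and the log10 ratio of Cy5 over Cy3. The deposited value table covers 25030 probes on the log10 scale. Set against the array files, its direction was footpad over reference plus a constant per probe for 64.4% of probes (within 0.001). What was done to the rest is not given in the sources used here. Its column medians were 2.58 to 2.59 at E17.5, 2.57 at P1, 2.57 to 2.58 at P3, 2.57 to 2.59 at P5 and 2.53 in adults.

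Members were chosen on the scanner software's ratio, averaged by probe, turned to log2 of footpad over reference. For the recomputed log2 ratios, both channels were corrected with normexp (offset 50) and loess within arrays (limma 3.58.1, R 4.3.3, data.table in version 1.17.8, tables with Python 3.11.15, pandas 2.3.3 and numpy 2.4.6). Cy3 signals in units are the scanner software's processed intensities, and its flags gave the counts above background. For the fold bounds, the average intensities were also quantile-normalized between arrays, which gives every array the same distribution. Differences in Cy3 or Cy5 alone used normexp and quantile normalization of that channel between arrays, without loess. Control spots had no weight in the loess, and outlier spots were left out. Probes well above background in Cy3 on at least 2 of the 20 arrays were tested, 32124 of 42006. One limma model held a coefficient for each of the 10 groups, with 10 residual degrees of freedom, and the SE is limma's. Tests were two-sided with a threshold of 0.05 after Benjamini-Hochberg adjustment over all probes tested, and the fit was tested on simulated data. The number of arrays limits the precision. Alternatives were the scanner software's ratio, no background subtraction, Cy3 alone, arrays brought to 1 scale, the values of the deposited table, only the stages compared, array weights, a trended and robust prior, a replicate block, other filters on dim probes, and each array left out in turn.

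Same-numbered Tabby and WT replicates deviated together at a correlation of -0.072 to 0.224 over the 5 stages. Such values cannot show whether same-numbered arrays were prepared together, and the fit as reported did not pair them. Named probes were the 8 with the largest differences at the stages that chose the members, up to 6 called at P3 and up to 4 each at P1 and E17.5 by size of difference, up to 3 in each direction for P3 against P1 in WT, the 2 probes on either side of each threshold, and probes that share at least 30 bases. Others are named as chosen after their values were seen, or to account for all called members. The members and these rules were chosen with earlier results of these data known.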

Additional observations from a re-analysis of the deposited data

How the results depend on the processing

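Counts of members called, from the fit as reported, were 1 lower in Tabby at E17.5, 2 at P1 and 16 at P3, 0 with a more negative difference at P3 than at P1, and 8 higher in WT and 3 higher in Tabby at P3 than at P1. At E17.5 the count was 0 with the scanner software's ratio, with arrays brought to 1 scale, with the deposited value table, with only the arrays of the stage and with array weights. At P1 it was 7 without background subtraction, 10 with Cy3 alone, 1 with 1 scale, 4 with the value table, 0 with only the stage's arrays, 1 with a trended and robust prior and 1 with the replicate block. At P3 it was 30 without background subtraction (0.875% of all probes called lower), 30 with Cy3 alone (1.34%), 36 with only the stage's arrays (0.741%) and 52 with array weights (5.6%), beside 0.221% as reported. For the difference of differences it was 1 without background subtraction, with Cy3 alone, with 1 scale and with only the stages compared, and 2 with the value table. For WT at P3 against P1 it was 14 with the scanner's ratio, 18 without background subtraction, 17 with Cy3 alone, 27 with only these stages and 15 with array weights, and the value table gave 12. For Tabby it was 7 with the scanner's ratio, 5 without background subtraction, 1 with Cy3 alone, 0 with 1 scale, 10 with only these stages, 9 with array weights and 1 with no filter on dim probes. Leaving out 1 array at a time gave 0 to 15 at E17.5 (15 where 15.9% of all probes were called), 0 to 5 at P1, 8 to 26 at P3 (0.0716% to 0.499% of all probes), 0 to 1 for the difference of differences, 3 to 16 for WT and 0 to 6 for Tabby; an arm left with 1 array is assumed to vary like the others. The replicate block gave 13 at P3, and otherwise 1, 1, 0, 8 and 2 in the order above. The deposited value table held 64 of the 92 members. No named difference changed sign under any alternative run. The probe differences at P5 and in adults were not refitted, since they chose the members. Low signal limits what can be said of the 18 members that were above background on no P3 array. The causes of these movements were not tested.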
